A study of Mus musculus with 22 samples.

Results

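Oncofetal liver genes are made by the liver before birth, silenced in the weeks after it, and switched on again in many liver tumours and injured livers. The set described here holds 8 of the 24786 genes measured: the fetal liver genes Afp, Gpc3, Igf2bp2, Igf2bp3 and Cyp3a16, the Afp repressors Zhx2 and Zbtb20, and Alb, which encodes adult serum albumin, as the reference. They were picked by name with their values in 6 liver libraries already known, so their liver levels are given as a description, with no test.

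Bulk RNA sequencing covered whole liver, whole thymus and sorted liver CD8+ T cells of C57BL/6 mice aged 2 to 4 weeks. The 6 livers, labelled batch 2, formed 3 groups of 2: untreated Aire+/+, untreated TG Aire-/-, and TG Aire-/- depleted of CD8+ T cells. A further set of genotypes without treatment, Aire-/-, TG Aire+/- and again TG Aire-/-, gave 3 thymus libraries and 1 library of liver CD8+ T cells apiece. TG stands beside a series title that names dnTGFβRII, a dominant-negative type II TGF-β receptor expressed in T cells, and Aire is the factor that lets thymic epithelium display tissue-restricted genes to developing T cells. The labels give one age range for all mice, the weeks in which fetal liver genes are being silenced, so a difference of age between single livers and a difference of group cannot be told apart.

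Alpha-fetoprotein, the product of Afp, is the main serum protein of the fetus. Afp and Alb are neighbours that arose by duplication, and after birth Alb stays on while Zhx2 and Zbtb20, a homeobox and a zinc finger protein, hold Afp down in hepatocytes. Zhx2 also holds down Gpc3, a cell surface glypican, and H19, and the perinatal cytochrome Cyp3a16 gives way to adult Cyp3a enzymes.

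On the GRCm38 assembly with GENCODE annotation, Alb spans chr5:90460897-90476602 and Afp chr5:90490737-90508907, both on the plus strand, with 14134 bases between them. Cyp3a16 lies on the same chromosome (chr5:145436309-145469723, minus strand). The others lie apart: Igf2bp3 at chr6:49085223-49214957, Zhx2 at chr15:57694665-57839832, Igf2bp2 at chr16:22059009-22163299, Zbtb20 at chr16:42875881-43642602 and Gpc3 at chrX:52272426-52613950.

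The 250 bases before the RefSeq start of the neighbours Afp and Alb are shown because these genes sit side by side and stood on opposite sides in the livers below. They come from RefSeq on GRCm38.p6 (Afp chr5:90490464-90490713, Alb chr5:90460620-90460869, plus strand). Capitals mark the CCAAT box, CCAAT or ATTGG on the other strand, a common promoter element.
Afp: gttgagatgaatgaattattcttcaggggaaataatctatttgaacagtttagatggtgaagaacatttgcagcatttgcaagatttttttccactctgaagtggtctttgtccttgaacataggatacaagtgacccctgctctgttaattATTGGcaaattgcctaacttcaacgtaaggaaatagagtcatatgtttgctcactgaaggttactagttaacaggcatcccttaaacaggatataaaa
Alb: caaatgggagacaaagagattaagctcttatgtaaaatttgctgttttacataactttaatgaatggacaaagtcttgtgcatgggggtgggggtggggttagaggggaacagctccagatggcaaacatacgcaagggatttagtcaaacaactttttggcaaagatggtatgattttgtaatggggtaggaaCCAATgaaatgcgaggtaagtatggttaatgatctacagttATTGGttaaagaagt
It occurred in 33.8% of 32851 promoter windows of this length. It began 98 bases before the RefSeq start of Afp, and 56 and 15 bases before that of Alb. Promoter entries were matched for 7 of the 8 genes, and of the other 5, Gpc3 and Igf2bp3 held 1 each. Base composition set the 7 apart: GC content was 36% for Afp, 39.2% for Alb, 44% for Cyp3a16 and 44.8% for Zbtb20, against 60.4% for Igf2bp3, 71.6% for Gpc3 and 77.2% for Igf2bp2, with a median of 52.4% over all windows. TATAAA, the TATA box core, was present in Afp and Cyp3a16 and in 12.4% of all windows, and GGGCGG, the GC box bound by Sp1, in Gpc3 and Igf2bp2 and in 32.7% of all windows.

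Across libraries, depth inferred from the step between low values was 20000000 to 22700000 reads in liver, 22400000 to 29600000 in thymus and 20600000 to 22300000 in CD8+ T cells. Hepatocyte markers (Alb, Ttr, Apoa1, Cps1 and Hnf4a) summed to 22370 RPKM (reads per kilobase of gene, scaled to the library total) or more in every liver. Cd8a read 0.161 and 0.220 RPKM in Aire+/+ livers, 3.75 and 8.76 in TG Aire-/- livers and 0 and 0.187 in depleted livers. Aire transcript stood at 15.95 to 29.45 RPKM in the thymus libraries labelled Aire-/-, 10.2 to 13.6 in TG Aire+/- and 6.50 to 20.25 in TG Aire-/-, so the libraries labelled Aire-/- lay above all those labelled TG Aire+/-, against the direction of the labels, and thymus groups are named by label only. Y-linked Ddx3y was read in both depleted livers (12.0 and 12.7 RPKM) but in only 1 library each of the Aire+/+ (11.9 and 0) and TG Aire-/- (10.2 and 0) groups, so sex is not balanced between them. The part of sex in the liver differences below, those of single genes included, was not tested.

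Alb was the most abundant gene in all 6 livers. It stood at 35830 and 39470 RPKM in the Aire+/+ livers, at 24390 and 18960 in the TG Aire-/- livers, and at 49400 and 24360 in the depleted livers. The TG Aire-/- values lay below both Aire+/+ values, while the depleted livers spread over both other groups. Group means were 37650 ± 2574, 21680 ± 3840 and 36880 ± 17710 RPKM (SD, n = 2 each). The mean log2 difference of TG Aire-/- from Aire+/+ was -0.81, which turned to 0.37 when libraries were scaled to the sum of other hepatocyte transcripts. Of those transcripts, Ttr and Apoa2 were themselves called lower in TG Aire-/- livers. Their sum differed 4.3-fold between the highest and lowest library, so the turn shows only that Alb fell less than that sum. In bulk tissue, fewer hepatocytes and less RNA per hepatocyte cannot be told apart.

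Afp was high in the TG Aire-/- livers alone. It read 6.27 and 4.69 RPKM in Aire+/+, 523 and 742 in TG Aire-/-, and 1.43 and 1.56 in depleted livers, and no groups overlapped. The Aire+/+ mean was 5.48 ± 1.12 and the TG Aire-/- mean 632.5 ± 155 RPKM (SD, n = 2 each), 115.4 times higher. The depleted mean was 1.498 ± 0.0933 RPKM (SD, n = 2), and the TG Aire-/- mean was 422.2 times higher than that. Among all genes of a liver, Afp ranked 4784 and 5647 in Aire+/+, 74 and 44 in TG Aire-/-, and 8880 and 9517 in depleted livers.

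Set against its neighbour, Afp made up 0.0175% and 0.0119% of the Alb level in the Aire+/+ livers. In the TG Aire-/- livers it reached 2.14% and 3.91% of Alb, and in the depleted livers 0.00290% and 0.00642%. The order of the groups was the same on this scale. Even at its highest, Afp stayed far below Alb.

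Gpc3, a heparan sulfate proteoglycan of the fetal hepatocyte surface that is also made by mesenchymal cells, followed the same order over a different range. Its values were 14.2 and 13.5 RPKM in Aire+/+, 55.4 and 70.9 in TG Aire-/- and 0.279 and 0.106 in depleted livers. The groups did not overlap, and the last 2 values correspond to about 17 and 6 reads at the inferred depth. Mean Gpc3 was 4.55 times higher in TG Aire-/- (63.1 ± 11.02 RPKM) than in Aire+/+ livers (13.9 ± 0.481), and 72.1 times lower in depleted (0.193 ± 0.123) than in Aire+/+ livers (SD, n = 2 each). Afp and Gpc3 therefore differed in where the depleted livers lay: the ratio of Aire+/+ to depleted means was 3.66 for Afp.

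**Figure D1:**
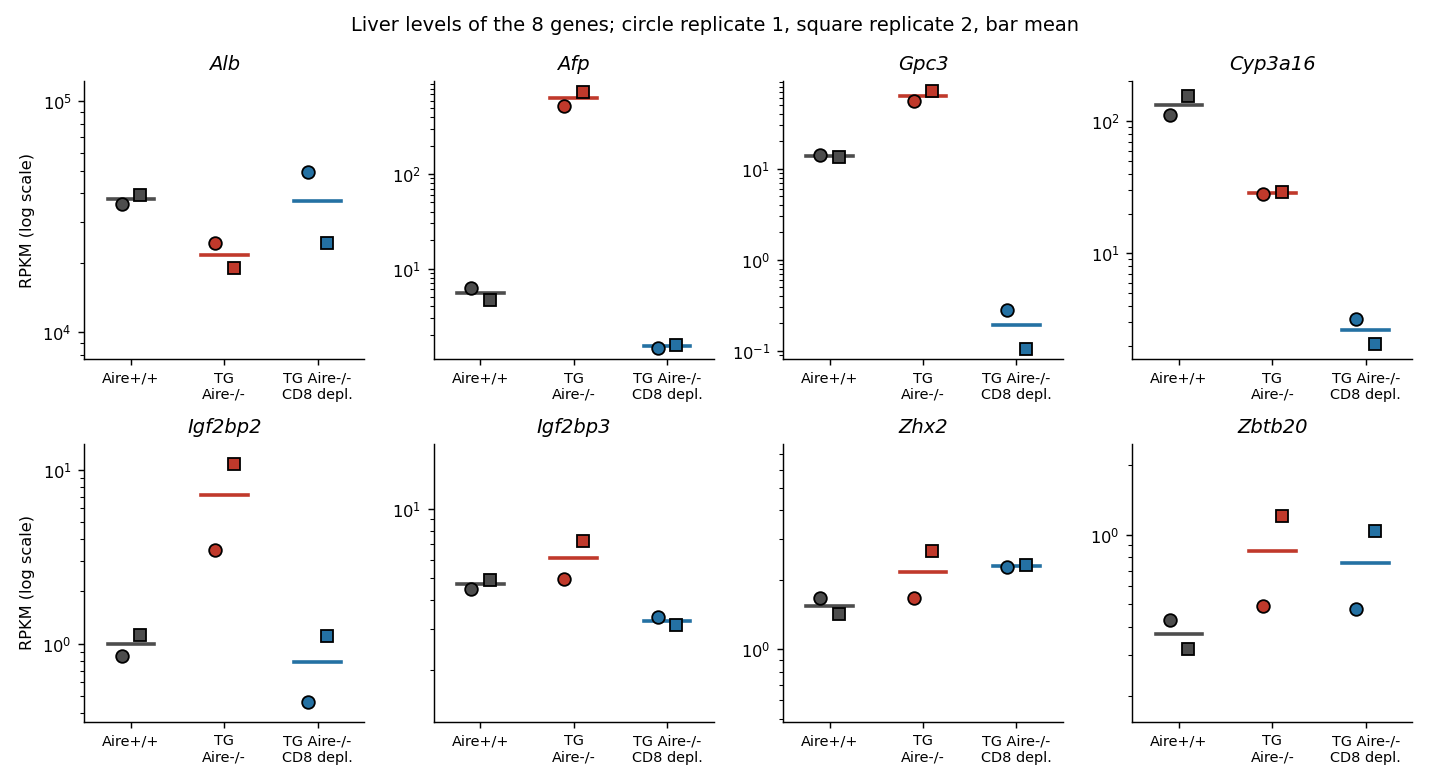
RPKM of the 8 genes on log axes, 1 panel a gene, in livers of the 3 groups (wild type for Aire, untreated TG, depleted TG); symbols are libraries and bars group means (n = 2). Afp peaks at 523 and 742 RPKM in TG Aire-/- livers, Gpc3 and Cyp3a16 are lowest in depleted livers, and Zhx2 and Zbtb20 stay below 3 RPKM.

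Igf2bp2 and Igf2bp3 encode RNA-binding proteins that stabilise growth-related messages such as Igf2. Igf2bp2 read 0.854 and 1.13 RPKM in Aire+/+, 3.47 and 10.9 in TG Aire-/- and 0.462 and 1.10 in depleted livers. The TG Aire-/- values were the highest but differed widely from each other, while Aire+/+ and depleted livers overlapped, and the sign of their difference turned from -0.18 to 0.18 on scaling to hepatocyte transcripts. Igf2bp3 ran from 4.48 and 4.91 RPKM in Aire+/+ through 4.95 and 7.26 in TG Aire-/- to 3.37 and 3.13 in depleted livers, a narrow range. Its difference between TG Aire-/- and Aire+/+ was 0.30 on the log2(RPKM + 1) scale and -0.15 at equal 75th percentile. Igf2bp3 and Zbtb20 overlap other annotated loci, and the counting tool is not given. Their values in liver, thymus and CD8+ T cells may thus hold reads of those loci, which was not tested.

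Between TG Aire-/- and Aire+/+ livers Cyp3a16 went against Afp and Gpc3, and in depleted livers it was low as they were. It stood at 111 and 155 RPKM in Aire+/+, 28.2 and 28.9 in TG Aire-/- and 3.20 and 2.06 in depleted livers. Each group lay apart from the others, highest in Aire+/+ and lowest in depleted livers, with means 4.66 times lower in TG Aire-/- (28.6 ± 0.516 RPKM) and 50.6 times lower in depleted livers (2.63 ± 0.809) than in Aire+/+ (133 ± 31.1; SD, n = 2 each). So in depleted livers Afp, Gpc3 and Cyp3a16 all stood below the Aire+/+ level. Of the 50-base windows of the Cyp3a16 transcripts, 10.7% also occur in Cyp3a11, Cyp3a41a or Cyp3a41b, so some reads may be shared with these copies.

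The repressors Zhx2 and Zbtb20 had low RPKM in every liver, including those with high Afp. RPKM divides by gene length, and GENCODE exons cover 30730 bases for Zbtb20 against 4434 for Zhx2. The annotation behind the deposited values is not given, and the part of length in the low Zbtb20 values was not tested. Zhx2 read 1.67 and 1.42 RPKM in Aire+/+, 1.66 and 2.66 in TG Aire-/- and 2.26 and 2.31 in depleted livers. The Aire+/+ and TG Aire-/- groups overlapped, and the log2 difference between their means, 0.30, became -0.05 at equal 75th percentile. Zbtb20, at 0.426 and 0.319 RPKM in Aire+/+, 0.489 and 1.20 in TG Aire-/- and 0.475 and 1.03 in depleted livers, was not lower in either TG group. Between depleted and TG Aire-/- livers Zhx2 differed by 0.07 and Zbtb20 by -0.06, with signs that turned to -0.26 for Zhx2 under hepatocyte scaling and 0.19 for Zbtb20 at equal 75th percentile. RNA level gives no measure of either protein.

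Likeness to each of the 8 genes was measured as the root mean square difference of centred log2(RPKM + 1) values over the 6 livers. The distance is not scaled to the range of a gene, so genes that varied little have small distances. Distances are therefore not comparable between the 8 genes. Nearest to Afp were Fabp4 (0.784), a fatty acid binding protein of fat cells, macrophages and capillaries, S100g (1.09) and Sprr1a (1.09). Nearest to Gpc3 were Sparc (0.802), Igf2 (0.844) and Myl9 (0.854), of which Sparc and Myl9 are matrix and contractile genes of mesenchymal cells. Cyp3a16 had Cyp2a22 (0.531), H19 (0.822) and Leap2 (0.889) as neighbours, and Alb had Hnf4a (0.0944), Serpina1b (0.104) and Glt1d1 (0.122). The nearest genes were Itpripl2 (0.0836) for Igf2bp2, Prrc1 (0.0516) for Igf2bp3, Fam208a (0.0574) for Zhx2 and Zfyve26 (0.0798) for Zbtb20.

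Other fetal liver genes, from a list of 22 that leaves out the 8, were tested with limma across all genes. Between TG Aire-/- and Aire+/+ livers 37.3% of 12231 tested genes were called (31.8% higher, 5.5% lower), and the median gene differed by 0.53. Of the 22 fetal genes 17 passed the filter on low values, 10 rose and 1 fell. The list median was 0.72 over all 22, tested or not. Among the 10 were Bex1 and Peg10, which passed that filter only through the TG Aire-/- livers, where they were high. These 2 calls are a description, also where the counts of rises below include them. At equal 75th percentile the all-gene median came down to 0.11 and the split of all calls from 3892 higher and 673 lower to 2145 and 1274, and 8 fetal genes rose and 3 fell. Without 1 library, the count of fetal genes that rose ranged from 5 (without TG Aire-/- replicate 2) to 10, and the total of 4565 calls from 1270 to 5102, with 1569 and 1651 without Aire+/+ replicates 1 and 2 and 1270 without TG Aire-/- replicate 2.

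Bex1, a gene of brain and fetal tissues, read 0.693 and 0.397 RPKM in Aire+/+ livers, 61.1 and 18.4 in TG Aire-/- and 0.105 and 0.393 in depleted livers. It rose by 4.50 ± 0.504 (SE) in TG Aire-/- against Aire+/+ livers (limma adjusted p = 0.00207). The surface glycoprotein gene Cd24a rose by 3.30, the fatty acid desaturase gene Scd2 by 3.20 and the imprinted gene Mest by 3.15 (limma adjusted p 0.00351, 0.003 and 0.00207). The calls of Cd24a, Scd2 and Mest held with any 1 library left out, as did those of Peg3 and Plagl1. Bex1 and Peg10 passed the filter on low values only through the TG Aire-/- livers, where they were high, so they could be tested in 4 of the 6 such fits, and their calls are no more than a description. The 1 gene that fell was Tbx3 (-1.38, limma adjusted p = 0.0232), a T-box factor of the early liver bud, and its call was lost without any 1 of 4 libraries.

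Between depleted and TG Aire-/- livers 38% of tested genes were called (4.49% higher, 33.5% lower), with a median of -0.58 over tested genes. Of the 17 fetal genes tested 12 fell and none rose. The list median was -1.65 over all 22, tested or not. At equal 75th percentile the split of all calls moved from 549 higher and 4097 lower to 1007 and 1982 with a median of -0.1, and 10 fetal genes fell and 1 rose. Bex1 (-4.81), Mest (-4.76) and Igf2 (-4.18), the fetal growth factor gene, were among them (limma adjusted p 0.00187, 0.000965 and 0.0021). Bex1 and Peg10, both counted as falling, passed the filter only through the TG Aire-/- livers, so their calls here too are no more than a description. The 4565 and 4646 calls of these comparisons share the TG Aire-/- libraries, so they are not independent of each other, and the second total was 1294 without TG Aire-/- replicate 2 and 2243 without depleted replicate 1.

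H19, the noncoding RNA made beside Igf2 and kept low after birth with the help of Zhx2, took the pattern of Cyp3a16 and not that of Afp. It read 487.5 and 644.5 RPKM in Aire+/+, 408 and 153 in TG Aire-/- and 7.53 and 11.65 in depleted livers. It fell by 5.76 ± 0.488 (SE) in depleted against Aire+/+ livers (limma adjusted p = 0.0053) and by 4.60 against TG Aire-/- livers (limma adjusted p = 0.00189), and both calls held with any 1 library left out, though with no filter on low values the first was lost. Between TG Aire-/- and Aire+/+ livers its difference was -1.16 (limma adjusted p = 0.0961). In depleted against Aire+/+ livers 0.548% of genes were called (0.221% higher, 0.327% lower), and of the fetal list H19 and the cell cycle inhibitor gene Cdkn1c (-2.78, limma adjusted p = 0.0428) fell. The call of Cdkn1c was lost without any 1 of the 6 libraries, and the total of 67 calls ranged from 13 to 141 with 1 of the 6 libraries left out.

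**Figure D2:**
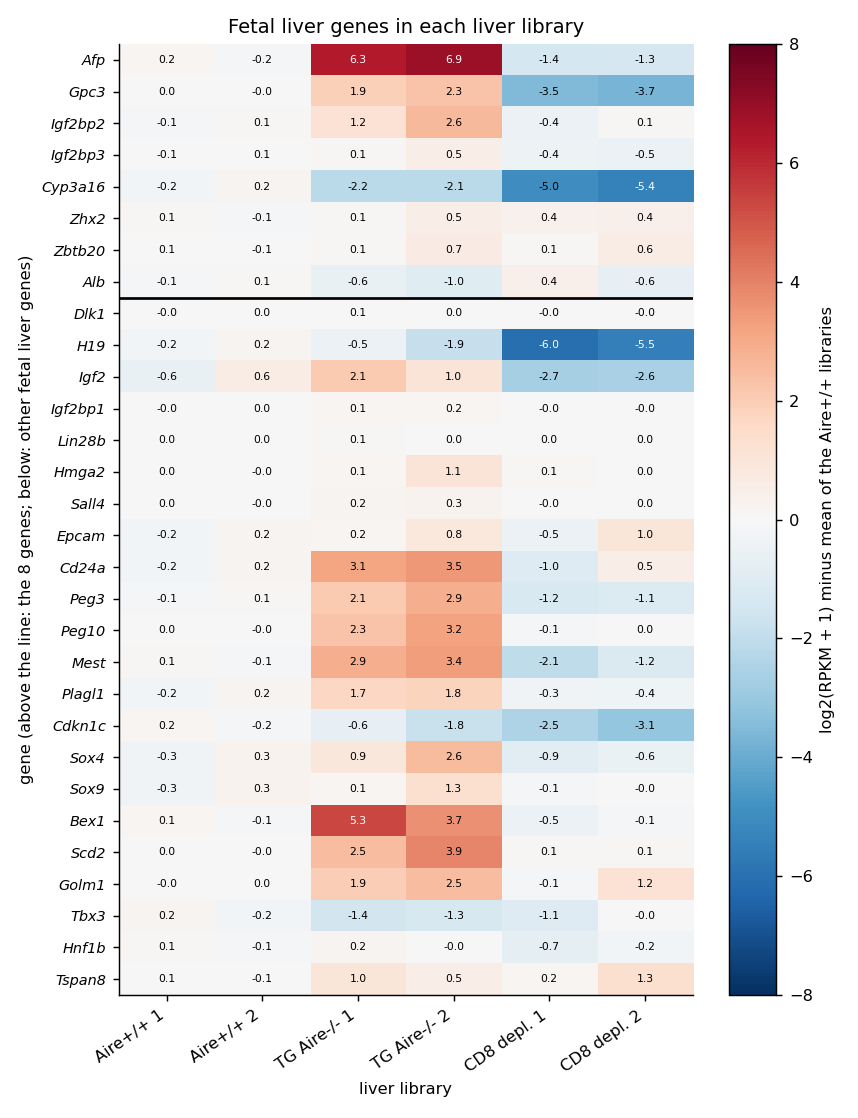
Difference of log2(RPKM + 1) from the Aire+/+ mean, coloured and printed for the 8 genes (above the line) and 22 other fetal liver genes (below) in each of 6 liver libraries. Afp, Bex1, Cd24a, Mest and Scd2 are red in the TG Aire-/- columns, while Cyp3a16, H19 and Gpc3 are blue in the depleted columns.

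The other genes of the Igf2bp2 and Igf2bp3 axis were mostly silent. Igf2bp1, Lin28a, Lin28b and Hmga2 did not pass the filter and, apart from Hmga2 at 1.16 RPKM in TG Aire-/- replicate 2, stayed below 0.2 RPKM in all livers. Hmga1, a chromatin protein gene of growing cells, read 10.2 and 6.89 RPKM in Aire+/+, 31.0 and 47.7 in TG Aire-/- and 8.71 and 9.35 in depleted livers. It rose by 2.07 and fell by 1.98 in the comparisons with TG Aire-/- livers (limma adjusted p 0.00381 and 0.00454). Igf2 rose by 1.55 in TG Aire-/- against Aire+/+ livers (limma adjusted p = 0.0361), a call lost at equal 75th percentile (1.06) and in 5 of 6 fits without 1 library.

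Among glypicans, Gpc3 stood alone in its range. Gpc4 read 18.4 to 25.1 RPKM across the 6 livers with no call in the 3 comparisons. Gpc6 rose by 1.06 in TG Aire-/- against Aire+/+ livers and fell by 1.42 in depleted against TG Aire-/- livers (limma adjusted p 0.0426 and 0.0164), and the first call was lost at equal 75th percentile. Gpc1 was not called in any of the 3 comparisons, and Gpc2 and Gpc5 did not pass the filter.

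Of the relatives of Alb and Afp in the same gene cluster, Afm, the vitamin E binding afamin, moved with Alb and not with Afp. Afm read 133.7 and 148.1 RPKM in Aire+/+, 41.4 and 28.8 in TG Aire-/- and 71.3 and 67.7 in depleted livers. It fell by 2.00 ± 0.292 (SE) in TG Aire-/- against Aire+/+ livers (limma adjusted p = 0.0035). Gc, the vitamin D binding protein gene, differed by -1.05 in that comparison (limma adjusted p = 0.0821), and in depleted against TG Aire-/- livers Gc rose by 1.34 and Afm by 0.99 (limma adjusted p 0.0392 and 0.0331). Those rises were lost without 1 library in 4 of 6 and 5 of 6 cases.

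The adult Cyp3a genes were compared with the perinatal Cyp3a16. Of 7 tested, 4 fell in TG Aire-/- against Aire+/+ livers and none rose, against 5.5% of all genes lower. They were Cyp3a11 (-2.59), Cyp3a44 (-1.73), Cyp3a25 (-1.46) and Cyp3a59 (-1.29), with limma adjusted p from 0.00859 to 0.0418. In depleted against TG Aire-/- livers Cyp3a11 rose by 3.36 (limma adjusted p = 0.00406), and Cyp3a13, Cyp3a25 and Cyp3a44 rose as well, whereas Cyp3a16 differed by -3.04. The 4 falls were each lost on leaving out at least 1 library, and of the rises that of Cyp3a11 held with any 1 library left out.

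Within the summed RPKM of 9 Cyp3a genes, the share of Cyp3a16 was 7.61% and 7.57% in Aire+/+, 5.21% and 7.42% in TG Aire-/- and 0.156% and 0.0462% in depleted livers. The sums were 1458 and 2048 RPKM, 541.6 and 390.1, and 2055 and 4454. Cyp3a16 was thus a like share of a smaller total in TG Aire-/- livers, and a minute share of a total at or above the Aire+/+ level in depleted livers. Cyp3a41a and Cyp3a41b, near-identical copies whose reads cannot be told apart with certainty, read 67.3 and 61.6 RPKM in depleted replicate 1 but 589 and 571 in replicate 2. Their mean RPKM was 4.675 and 6.85 times higher in TG Aire-/- than in Aire+/+ livers, against the direction of the 4 called Cyp3a genes. They were not called in any of the 3 comparisons.

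**Figure D3:**
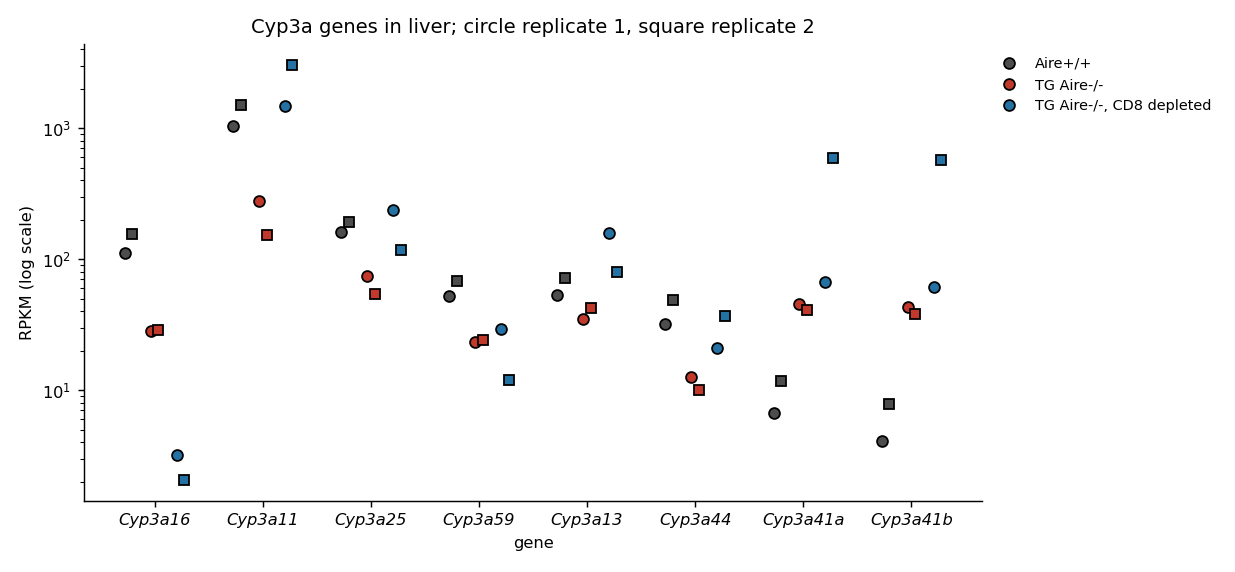
RPKM (log axis) of Cyp3a16 and 7 adult Cyp3a genes in each liver library, coloured by group. Cyp3a16 lies between 155 and 2.06 RPKM, highest in Aire+/+ and lowest in depleted livers, while Cyp3a11 is lowest in TG Aire-/- livers at 279 and 152 RPKM.

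Among other known regulators of Afp, 12 of 13 passed the filter, and 3 of them were called in TG Aire-/- against Aire+/+ livers, a share below the 37.3% of all genes called. In TG Aire-/- against Aire+/+ livers Onecut1 rose by 1.68 and Trp53, the p53 gene and a repressor of Afp, by 1.19 (limma adjusted p 0.0347 and 0.0256), and Cebpa, an activator of adult hepatocyte genes, fell by 1.73 (limma adjusted p = 0.00958). Only the fall of Cebpa kept its call at equal 75th percentile, where Hnf4a (-1.45) and Foxa2 (-1.22) also passed, and each of the 3 calls was lost on leaving out at least 1 library. In depleted against TG Aire-/- livers Trp53, Cebpb and Smad3 fell by 1.24, 1.04 and 1.13 (limma adjusted p 0.022, 0.0471 and 0.0304). None of those calls held at equal 75th percentile, where Hnf4a (1.33), Foxa1 (1.05) and Cebpa (1.49) passed as higher. The Zhx2 relatives Zhx1 and Zhx3 were not called in any of the 3 comparisons.

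**Figure D4:**
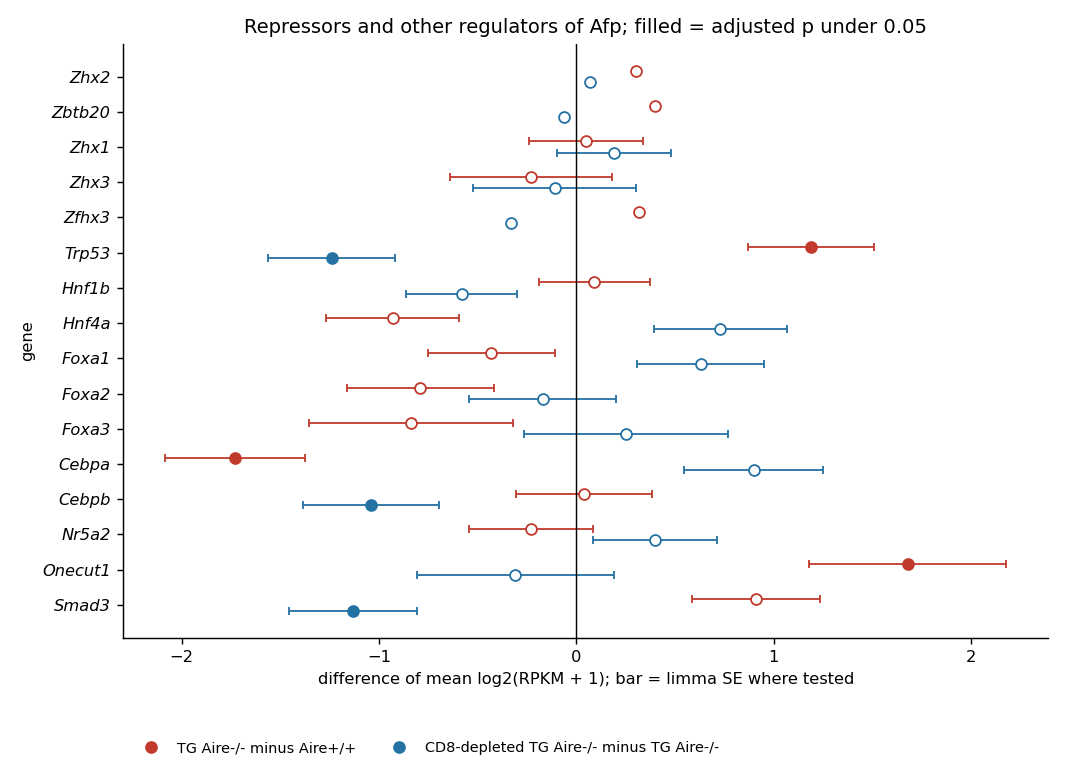
Difference of mean log2(RPKM + 1) for Zhx2, Zbtb20, 2 Zhx relatives and other Afp regulators in 2 liver comparisons; bars are limma standard errors, and points without a bar were not tested. Zhx2 and Zbtb20 lie at 0.30 and 0.40 for TG Aire-/- minus Aire+/+, while Cebpa lies at -1.73.

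Other genes that respond to Zhx2 in liver gave no single pattern. Lpl, the lipoprotein lipase gene that Zhx2 represses, fell by 1.62 in depleted against TG Aire-/- livers (limma adjusted p = 0.0283), a call lost at equal 75th percentile. Elovl3, a fatty acid elongase gene, fell by 1.56 in TG Aire-/- against Aire+/+ livers (limma adjusted p = 0.003), having passed the filter only through the Aire+/+ livers, and fell by 1.41 in depleted against Aire+/+ livers (limma adjusted p = 0.0469), a call lost in all 4 fits without 1 library that tested it. Mup20, a urinary protein gene with near-identical relatives, read 1.14 and 1.99 RPKM in Aire+/+, 10.6 and 5.09 in TG Aire-/- and 52.7 and 15870 in depleted livers, so its rise of 6.78 ± 2.15 (SE) in depleted against TG Aire-/- livers (limma adjusted p = 0.0421) joins 2 very unlike libraries.

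Isoenzymes typical of fetal or growing cells were higher in TG Aire-/- livers. Of 6, 5 rose in TG Aire-/- against Aire+/+ livers, where 31.8% of all genes rose, led by Pkm, the pyruvate kinase of fetal and dividing cells (4.92), Hk1 (3.18), Aldoa (2.92) and Hk2 (2.68), and 5 fell in depleted against TG Aire-/- livers, where 33.5% of all genes fell. Hk2 passed the filter only through the TG Aire-/- livers. These genes are also expressed by immune and stromal cells.

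Enzymes switched on after birth were lower in TG Aire-/- livers. In TG Aire-/- against Aire+/+ livers 10 of 16 fell and none rose, beside 5.5% of all genes that fell, led by Cyp1a2 (-7.02), Cyp2e1 (-6.98), Serpina6 (-6.81) and Cyp2c29 (-5.63), with limma adjusted p from 0.00142 to 0.00217. In depleted against TG Aire-/- livers 9 rose, beside 4.49% of all genes. Between depleted and Aire+/+ livers none was called, beside 0.548% of all genes, so the lack of calls does not show equal levels. Of 12 adult secreted proteins 4 fell in TG Aire-/- livers, beside 5.5% of all genes, namely Serpinc1 (-1.75), Apoa2 (-1.71), Ttr (-1.66) and Apoh (-1.40), and each of these calls was lost in 3 of 6 fits without 1 library.

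Markers of other cells moved with the same groups. T cell markers rose in 7 of 7 in TG Aire-/- against Aire+/+ livers, endothelial in 6 of 6, macrophage in 6 of 7, erythroid in 6 of 7, stellate and fibroblast in 5 of 8, and cholangiocyte in 2 of 6 tested, beside 31.8% of all genes. Of the 5 stellate and fibroblast calls 1 held with any 1 library left out, and of the 2 cholangiocyte calls none. The filter was passed only through the TG Aire-/- livers by 3 erythroid, 2 T cell and 1 cholangiocyte marker. Proliferation genes rose in 10 of 13, among them Mki67 (2.37) and Rrm2 (2.15), and all 13 fell in depleted against TG Aire-/- livers, beside 33.5% of all genes. Of these genes 1, called in both comparisons, passed the filter only through the TG Aire-/- livers. At equal 75th percentile 5 of the 10 rises and 10 of the 13 falls held, and with any 1 library left out 2 (Mki67 and Rrm2) and 6. Summed stellate and fibroblast RPKM was 64.0 to 103 in Aire+/+, 318 to 389 in TG Aire-/- and 11.4 to 29.5 in depleted livers. Endothelial RPKM was 27.8 to 31.4, 181 to 378 and 24.4 to 25.7. Both sums, and the erythroid sums below, had the same order of groups as Gpc3.

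Erythroid markers, which mark the blood formation that fetal liver also carries, summed to 385 to 499 RPKM in Aire+/+, 3264 to 5194 in TG Aire-/- and 90.7 to 185 in depleted livers. The sums for T cells were 2.31 to 2.52, 30.7 to 49.95 and 5.50 to 10.3 RPKM, for macrophages 116 to 119, 817 to 853 and 99.6 to 409, and for cholangiocytes 29.3 to 41.2, 56.6 to 103 and 21.8 to 104. At 0 were 1 erythroid marker in each Aire+/+ liver and 3 erythroid and 1 T cell marker in depleted replicate 1, and none in TG Aire-/- livers. The part of these cells in the levels of Afp, Gpc3 and the other fetal genes was not tested.

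Thymus was not used to choose the genes, and 5 of the 8 passed its filter. None of the 5 was called in any of 3 comparisons, where limma called 0%, 0.0159% and 0% of 12568 genes (279, 949 and 118 genes had an unadjusted p under 0.05). Afp read 0.483, 0.522 and 0.421 RPKM in the libraries labelled TG Aire-/-, against 1.11, 1.05 and 0.961 for TG Aire+/- and 0.915, 0.655 and 1.33 for Aire-/-. All 3 TG Aire-/- libraries lay below the other 6, yet the differences of -0.47 from TG Aire+/- and -0.40 from Aire-/- did not pass (limma adjusted p 0.892 and 0.61). Afp passed the filter only through 3 libraries of those other groups, so this order supports nothing on its own.

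Igf2bp3 had the highest group means of the 8 in thymus, though Gpc3 exceeded it in TG Aire-/- replicate 1. It stood at 6.00, 7.23 and 10.8 RPKM for TG Aire-/-, 8.97, 12.9 and 13.8 for TG Aire+/- and 9.71, 17.2 and 15.98 for Aire-/-, and the groups overlapped. Its difference between TG Aire-/- and Aire-/- was -0.76 (limma adjusted p = 0.61). Gpc3 read 7.497 RPKM in TG Aire-/- replicate 1 but 0.471 and 1.03 in replicates 2 and 3, and 0.187 to 3.16 elsewhere. That replicate also had the fewest T cell marker reads (679 RPKM against 1556 or more) and the most macrophage (1006 against 169.7 or less) and stellate and fibroblast (163 against 87.4 or less) marker reads, and the part of these cells in Gpc3 was not tested. Zhx2 read 1.62 to 5.74 RPKM with overlapping groups, and Alb reached 5.03 RPKM in TG Aire-/- replicate 2 and 0.810 or less in the others.

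**Figure D5:**
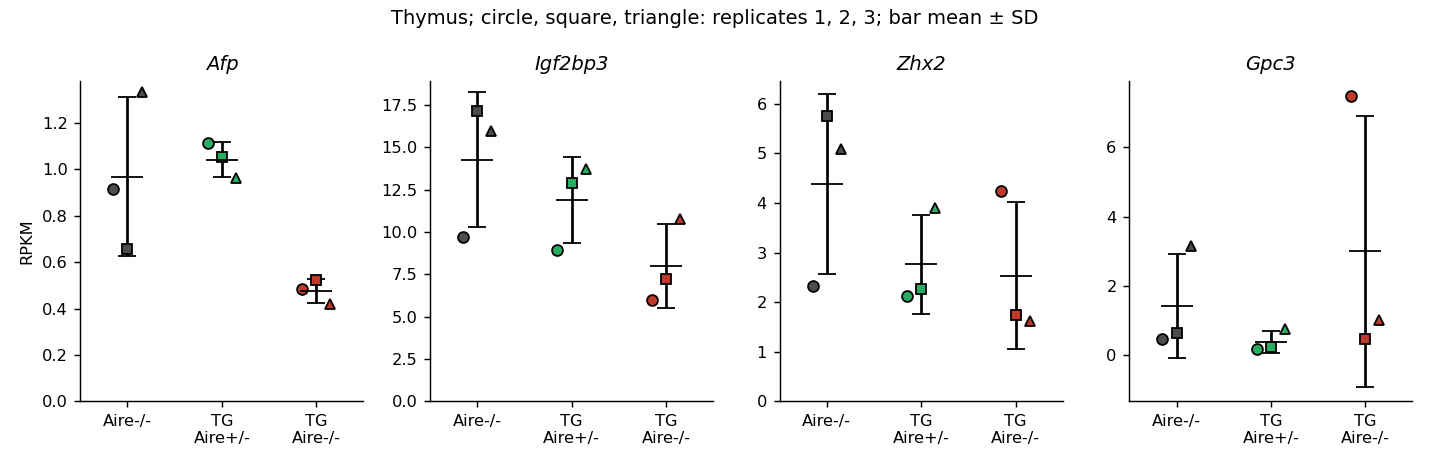
RPKM of Afp, Igf2bp3, Zhx2 and Gpc3 in thymus libraries by labelled genotype; bars are mean ± SD (n = 3). Afp lies between 0.421 and 0.522 RPKM in TG Aire-/- and at 0.655 RPKM or more in the other 6 libraries.

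In CD8+ T cells sorted from liver, with 1 library a group and no test, Zhx2 read 6.71 RPKM for Aire-/-, 6.76 for TG Aire+/- and 0.964 for TG Aire-/- mice. Afp read 1.67, 1.42 and 0.438 RPKM and Alb 3.04, 0.838 and 0.659 in the same order. Afp thus made up 55.0%, 169% and 66.5% of Alb there, not the 3.91% or less found in whole liver. Igf2bp3 read 2.73, 4.02 and 4.23 RPKM, Igf2bp2 0.636, 0.574 and 0.242 and Zbtb20 1.01, 0.427 and 0.305. Gpc3 and Cyp3a16 were listed at 0 in all 3 libraries, where erythroid marker sums were 4405 RPKM in Aire-/- and 42.8 and 35.6 in the other 2.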

How the data were processed

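Of 22 samples, 18 were used, and the 4 livers with no batch in their titles were not analysed here. The authors deposited RPKM values, and the submitters' processing notes list STAR 2.5.2b and the mm10 build. The sources used here do not give annotation, strand or counting tool, and per the labels' protocols libraries followed Illumina or BGI protocols. Depth was inferred by scanning 15000000 to 32000000 reads for whole-number reads. At the best-matching depth of each library, between 38.4% and 51.6% of low values were whole within 0.1 read. Chance gives 20% at a fixed depth, and the median share over the scanned depths was 14.13% to 18.34%. The best share was picked by the scan itself, and the match was too loose for a count test.

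Testing was limited to genes at 1 RPKM or more in 2 or more liver (3 or more thymus) libraries and used limma 3.58.1 (R 4.3.3; trend, two-sided) on log2(RPKM + 1), a scale that understates the change of low genes. The 3 groups of a table entered 1 fit without block, with Benjamini-Hochberg adjustment within a comparison and a threshold of 0.05. With 2 or 3 libraries a group, not stated to be separate animals, p-values measure only the spread between these samples. Differences are on the log2(RPKM + 1) scale, and folds of the 8 genes are ratios of mean RPKM.

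The 8 genes and the gene lists were chosen with earlier results of these data known. Named were the 8 genes, all genes of the family and regulator lists, up to 4 genes of each other list with the largest called difference, and the 3 nearest genes by root mean square difference. Peg3, Peg10, Plagl1, Tbx3 and Cdkn1c were named after their values were seen. Alternatives were a pseudocount of 0.1, no filter, equal 75th percentiles, only the groups compared, the replicate block, each library left out and, for the 8 genes, scaling to Ttr, Apoa1, Apoa2, Cps1 and Hnf4a. Promoters are RefSeq's, on GRCm38.p6, and motifs were searched on both strands. The fits were tested on simulated data with known changes. Some results are not reported here.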

Additional observations from a re-analysis of the deposited data

How the results depend on the processing

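Afp, Gpc3 and Cyp3a16 kept the direction of each of their 3 liver differences under every alternative run, from 6.09 to 7.69 for Afp in TG Aire-/- against Aire+/+ livers. Directions turned for 5 of the 8 genes. TG Aire-/- against Aire+/+: Igf2bp3 -0.15 and Zhx2 -0.05 at equal 75th percentile, and Alb 0.37 under hepatocyte scaling. Depleted against TG Aire-/-: Zhx2 -0.26 under hepatocyte scaling and, with 1 library left out, from -0.15 (TG Aire-/- replicate 1) to 0.3 (TG Aire-/- replicate 2), and Zbtb20 0.19 at equal 75th percentile and, with 1 left out, from -0.35 (TG Aire-/- replicate 1) to 0.22 (TG Aire-/- replicate 2), with 0.17 without depleted replicate 1. Depleted against Aire+/+: under hepatocyte scaling Igf2bp2 0.18, Igf2bp3 0.22 and Alb 0.69, and, without depleted replicate 1 or 2, Igf2bp2 0.08 or -0.44 and Alb -0.63 or 0.39. With 1 library left out, calls ranged from 1270 to 5102 for TG Aire-/- against Aire+/+ (fetal list 5 to 10 higher, 0 to 2 lower), from 1294 to 4723 for depleted against TG Aire-/- (fetal list 0 to 1 higher) and from 13 to 141 for depleted against Aire+/+ (fetal list 1 lower each time). A lone library left in a group was assumed to vary like the others. Fetal genes lower in TG Aire-/- against Aire+/+ numbered 0 with no filter, 3 at equal 75th percentile and 2 with the replicate block. Calls for depleted against TG Aire-/- fell to 2989 at equal 75th percentile, with 1 fetal gene higher. Depleted against Aire+/+ gave 17 calls with no filter (0 fetal genes lower) and 17 with only those groups fitted (1 fetal gene lower). In thymus, no filter gave 57, 0 and 41 calls for TG Aire-/- against TG Aire+/-, TG Aire-/- against Aire-/- and TG Aire+/- against Aire-/-, the second was 0 at equal 75th percentile, with the replicate block and with only its groups fitted, and ranges with 1 library left out were 0 to 50, 0 to 19 and 0 to 4, the highest each without TG Aire-/- replicate 1. Deviations of same-numbered libraries correlated at 0.29, -0.09 and -0.15 in the liver pairs of groups and from -0.18 to 0.77 in thymus, not above 0.1 in every pair, and no label pairs the numbers. The block gave 4341, 4427 and 63 calls in the 3 liver comparisons in the order above. Since TG Aire-/- and depleted livers of the same number correlated at -0.15, the block with crossed numbers, added after seeing the data, was run and gave 4896 calls. The cause of these shifts was not tested. Depth limits Gpc3 in depleted livers, at about 17 and 6 reads.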
